A study of Rattus norvegicus with 6 samples.

Results

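The 5 microRNAs described here are the 5p arms of the miR-125 family (rno-miR-125a-5p and rno-miR-125b-5p) and of the miR-99/100 family (rno-miR-99a-5p, rno-miR-99b-5p and rno-miR-100-5p). They were taken by name from the array files, but with earlier results of these data known. All 5 were present among the 758 rat microRNAs of the array. Plasma came from 3 untreated male Sprague-Dawley rats aged 10 weeks. From each rat, 3 mL of arterial blood was drawn from the abdominal aorta and 3 mL of venous blood from the postcava, and each of the 6 plasma RNAs was hybridized to its own single-colour Agilent microRNA array. The arterial and venous samples of a rat form a matched pair, and the question was whether plasma microRNAs differ between the arterial and the venous side. RNA in plasma is pooled from all sources, so the number of releasing cells and the RNA that each releases cannot be told apart.

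MicroRNAs are short RNAs that guide Argonaute proteins to messenger RNAs, chiefly by pairing of the seed near their 5′ end, and lower the output of those messages. miR-125 is the mammalian form of lin-4, the first microRNA found in worms, and is known for roles in haematopoietic stem cells and in cell survival through targets such as Bak1 and Trp53. The miR-99/100 family is known to act on Mtor and Igf1r, and members of both families are expressed in vascular endothelium and smooth muscle. In the genome the families lie together with a let-7 gene in each of 3 clusters, which are transcribed from long primary transcripts.

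The mature sequences below, from RefSeq on the GRCr8 assembly, show what separates the 2 families. The capitals mark the seed (bases 2 to 8), and the last 2 sequences are relatives that serve as references for the members.
rno-miR-125a-5p: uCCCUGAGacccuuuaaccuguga
rno-miR-125b-5p: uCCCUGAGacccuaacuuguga
rno-miR-99b-5p: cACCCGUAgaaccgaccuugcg
rno-miR-100-5p: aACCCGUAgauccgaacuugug
rno-miR-351-5p: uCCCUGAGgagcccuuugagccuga
rno-miR-10a-5p: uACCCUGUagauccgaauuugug

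The seed CCCUGAG was found in 3 of the 693 mature names of the RefSeq table, rno-miR-125a-5p, rno-miR-125b-5p and rno-miR-351-5p. The miR-125 members matched over their first 13 bases and differed toward the 3′ end, where rno-miR-125a-5p is 24 and rno-miR-125b-5p 22 bases long. rno-miR-99b-5p and rno-miR-100-5p are both 22 bases long and differed by C1A, A11U, C16A and C21U, counted from the 5′ end with the base of rno-miR-99b-5p first. The mature sequence of rno-miR-99a-5p was missing from the RefSeq table, so it is not shown and was not compared with the others. rno-miR-100-5p shared a run of 11 bases with rno-miR-10a-5p. Cross-hybridization between such close sequences was not tested.

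In GRCr8, Mir99b, Mirlet7e and Mir125a lie within 696 bases of chromosome 1, inside the protein-coding gene Spaca6. The mature rno-miR-99b-5p is at chr1:67350070-67350091 and rno-miR-125a-5p at chr1:67350689-67350712, both on the plus strand. Mir100, Mirlet7a-2 and Mir125b1 span 51828 bases of chromosome 8 within the annotated genes Mir100hgl and Lnc215, with rno-miR-100-5p at chr8:50798307-50798328 on the plus strand. Mir99a, Mirlet7c1 and Mir125b2 lie inside the long non-coding RNA LOC103693508 on chromosome 11, with 1 copy of rno-miR-125b-5p at chr11:29732588-29732609 on the plus strand. rno-miR-125b-5p, rno-let-7a-5p and rno-let-7c-5p are each made from more than 1 gene, so their signals cannot be assigned to a cluster.

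Each member was covered by 2 probes with 8 spots each, 80 of the 12128 microRNA spots of an array. Feature Extraction called 137 to 175 microRNAs detected on an array and 201 on at least 1, and none of their spots was saturated. The arrays of rats 1 and 2 shared a slide and a scan, and both arrays of rat 3 were on another, so each slide held arterial and venous samples alike. In what follows, values for single rats stand in the order of rats 1, 2 and 3. Levels are given as log2 of the quantile-normalized intensity with a floor of 1, at which the log2 level is 0. rno-miR-125b-5p and rno-miR-99a-5p were detected on all 6 arrays, rno-miR-125a-5p on 3 arterial arrays and 1 venous array, rno-miR-100-5p on 2 arterial arrays and rno-miR-99b-5p on none.

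rno-miR-125a-5p, the miR-125 member encoded in the cluster of let-7e, was higher on the arterial than on the venous side of each rat. Its arterial log2 levels were 2.54, 3.96 and 3.37. The venous ones were 2.17, 3.40 and 2.65. The 2 groups overlapped, because rat 2 was high on both sides and rat 1 low on both, and the difference showed only within rats. Within rats the log2 difference (arterial minus venous) was 0.37, 0.55 and 0.72. The group means were 3.29 ± 0.71 (SD, n = 3) and 2.74 ± 0.62 (SD, n = 3), and they differed by 0.55 on the log2 scale (standard error 0.0965). In limma with the rat as a block its unadjusted p of 0.0238 was just inside 0.025, the cutoff that the study applied to a paired test of its own, and its adjusted p was 1. The call was lost with the methods' t-test and held in 3 of 19 alternatives, which include a value with no test and a repeated fit. The spots behind this difference were dim. Among those kept, spots were well above background on the arterial arrays of rats 2 and 3 and on the venous array of rat 2 alone, so that the venous values of rats 1 and 3 and the arterial value of rat 1 lie near background, and no fold is given.

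rno-miR-125b-5p, known as a regulator of blood stem cells, was the member with all 96 of its spots well above background. Its log2 levels were 6.16, 6.67 and 6.08 in arterial and 5.85, 6.61 and 5.81 in venous samples. Again rat 2 was highest on both sides and the groups overlapped. The paired log2 differences of 0.31, 0.06 and 0.26 averaged 0.21 (limma standard error 0.0735), a 1.16-fold ratio, which did not pass the cutoff (limma, unadjusted p = 0.0919, adjusted p = 1). With the fit limited to microRNAs detected on at least 1 array the standard error was 0.2189. The study itself called this microRNA arterial-high with its own paired test and normalization. It also reported a significant difference in that direction by qRT-PCR of further rats.

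rno-miR-99a-5p, of the family known for acting on Mtor, had arterial log2 levels of 4.62, 4.93 and 4.14. The venous levels were 4.35, 4.62 and 3.44. The lowest arterial level, that of rat 3, lay below the venous levels of rats 1 and 2. Within rats the log2 difference was 0.28, 0.31 and 0.69, with a mean of 0.43 and a limma standard error of 0.128, a 1.34-fold ratio. It did not pass the cutoff (limma, unadjusted p = 0.0700, adjusted p = 1). With the fit limited to microRNAs detected on at least 1 array the standard error was 0.2285. Without rat 3 the difference was smaller, at 0.29, and past the cutoff (limma, unadjusted p = 0.00685, adjusted p = 0.742). That fit rests on only 2 rats, whose differences of 0.28 and 0.31 lie close together. Over all microRNAs 17 passed the cutoff in it, against 6 with all rats.

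**Figure D1:**
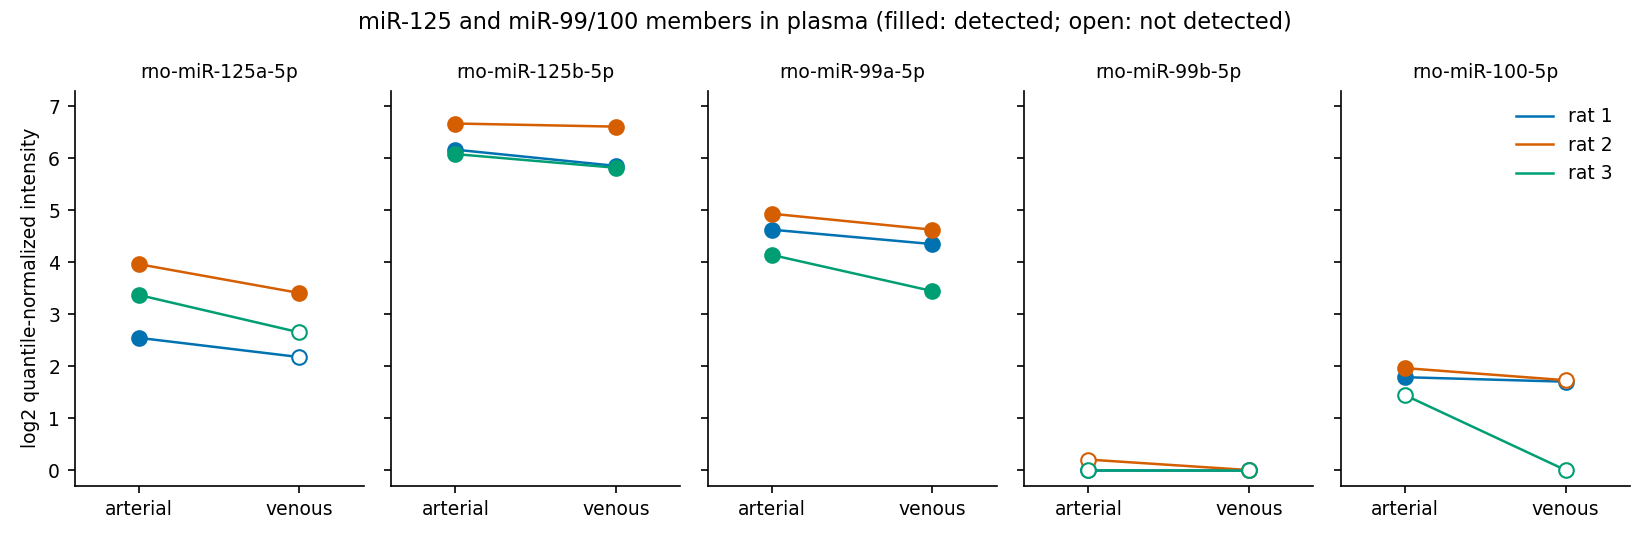
Log2 quantile-normalized intensity of each member in arterial and venous plasma, with a line for each rat; filled points were called detected and open points were not. rno-miR-125a-5p, rno-miR-125b-5p and rno-miR-99a-5p fall from arterial to venous in every rat, and rat 2 is the highest of the rats for all of these, while rno-miR-99b-5p stays at or near the floor of 0.

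The other members of the miR-99/100 family were close to background. rno-miR-100-5p had log2 levels of 1.79, 1.96 and 1.44 in arterial plasma and 1.70, 1.73 and 0 in venous plasma. Only rat 3 showed a wide gap, and there the venous value was at the floor. None of its kept spots was well above background on any array, so no fold is given. rno-miR-99b-5p was at the floor on 5 arrays and at 0.20 in the arterial plasma of rat 2. Its only spot well above background, at 30.8 in the venous plasma of rat 3, had been marked as an outlier and was left out.

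The individual spots show how the levels arose. Before any normalization, the 8 spots of probe 1 of rno-miR-125b-5p averaged 55.6 ± 3.62 (SD over spots) in the arterial and 27.1 ± 3.03 in the venous plasma of rat 1. In rat 2 the order was turned, with 70.8 ± 4.10 in arterial and 85.6 ± 5.04 in venous plasma, the latter over 6 kept spots. In rat 3 the same probe gave 31.0 ± 1.05 over 4 kept spots against 14.9 ± 2.00. The spots of 1 array are repeats of the same hybridization, so their SD measures spot error and not the spread between rats. Probe 2 of rno-miR-125b-5p had the same order in each rat, at 110.9 against 59.8, 172.6 against 202.8 and 89.0 against 41.8. For rno-miR-99a-5p the kept spots of probe 2 averaged 40.2 against 22.3, 55.2 against 47.7 and 24.1 against 10.2 (arterial before venous). Both of its probes were thus higher on the arterial side in every rat. For rno-miR-125a-5p probe 2 gave 10.8 against 5.87, 23.6 against 19.1 and 10.99 against 5.46. Its probe 1 gave 3.91 against 0.402, 10.1 against 8.74 and 5.19 against 2.23, and in the venous plasma of rat 1 this probe was at background after 3 of its 8 spots had been marked as outliers. The probes of these 3 members therefore pointed the same way within each rat.

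**Figure D2:**
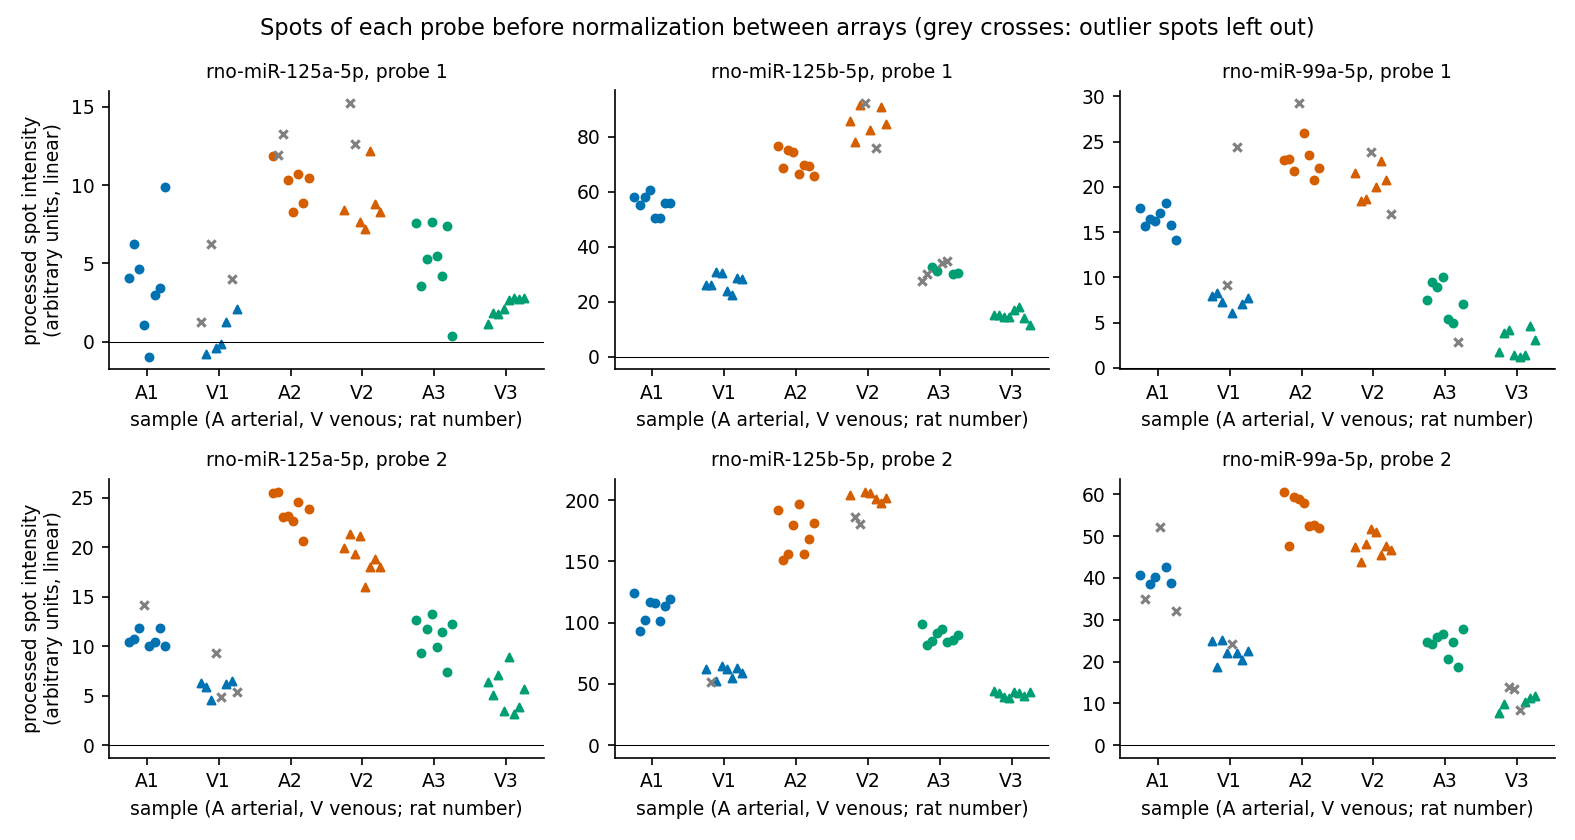
Processed intensity (linear, arbitrary units, background subtracted by Feature Extraction) of every spot of the 2 probes of rno-miR-125a-5p, rno-miR-125b-5p and rno-miR-99a-5p on the 6 arrays before normalization between arrays. Circles are arterial and triangles venous samples, colours mark the rats and grey crosses mark outlier spots left out; the spots of rno-miR-125b-5p form tight groups that separate the arrays, and in rat 2 the venous spots are the brighter ones.

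The arrays differed in brightness, and this enters every member. Over the microRNAs detected on all arrays, the median unnormalized log2 difference (arterial minus venous) was 0.63 in rat 1, -0.29 in rat 2 and 0.84 in rat 3. Relative to that shift, the log2 difference of rno-miR-125b-5p was 0.31, 0.04 and 0.25, close to its quantile-normalized values. For rno-miR-99a-5p it was 0.30, 0.49 and 0.46. For rno-miR-125a-5p it was 0.59, 0.57 and 0.24, so that rat 3, which had the largest of its differences after quantile normalization, had the smallest relative to the median. All 3 stayed higher on the arterial side of each rat by either measure, while without any normalization rno-miR-125b-5p was lower in the arterial plasma of rat 2, by a log2 difference of -0.24.

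Of the 5 members, 1 passed the unadjusted cutoff, with the arterial level the higher, against 6 of all 758 microRNAs (0.792%). However, 557 of the 758 were detected on no array. With the fit limited to the 201 detected on at least 1 array, 6 passed. In that fit rno-miR-125a-5p did not pass (limma, unadjusted p = 0.0512). Of the 6 past the cutoff in the fit over all 758, 4 (0.528%) were arterial-high and 2 (0.264%) venous-high, so that 66.7% were arterial-high. That share was 44.4% of 9 with scaling to the 75th percentile and 80% of 5 without normalization. Over all alternatives that share ran from 0% of 2 with a floor of 5 to 100% when the fit was limited to detected microRNAs. The latter was of 3 for those detected on all arrays and of 6 for those detected on at least 1. These shares rest on few microRNAs. In limma over all 758, 0 microRNAs reached an adjusted p of 0.05, while 12 (1.58%) had an unadjusted p at or under 0.05. Limited to the 201 detected on at least 1 array, the same fit had 1 past adjustment, which was none of rno-miR-125a-5p, rno-miR-125b-5p and rno-miR-99a-5p (adjusted p = 0.826 for each). With the methods' t-test these counts were 0 and 9. In direction, 4 of the 5 members had the higher arterial level in each rat, rno-miR-100-5p near background among them, and none had the lower. Of the 758 microRNAs, most of which lie at the floor, 3.43% were higher and 2.9% lower on the arterial side of each rat. Of the 201 detected on at least 1 array, 22 (10.9%) were higher throughout. Among those detected on all arrays the shares were 9.52% higher and 10.3% lower, and rno-miR-125b-5p and rno-miR-99a-5p belong to the former. With 3 pairs that share a sign, an exact two-sided permutation test gives p = 0.25, its minimum in this design. The log2 differences of the microRNAs detected on all arrays had a median of 0.00 and ran from -0.41 at the 10th to 0.30 at the 90th percentile, which placed rno-miR-125b-5p at 0.21 within and rno-miR-99a-5p at 0.43 above that range.

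No difference between the responses of the 3 measured members passed the exact test, which cannot go below 0.25 with 3 pairs. The log2 difference of rno-miR-125a-5p exceeded that of rno-miR-125b-5p by 0.34 on average (95% interval -0.27 to 0.94) and in all 3 rats. It exceeded that of rno-miR-99a-5p by 0.12 (95% interval -0.16 to 0.41), also in all 3 rats. Relative to the median shift instead, rat 3 had the turned order, with 0.24 for rno-miR-125a-5p, 0.25 for rno-miR-125b-5p and 0.46 for rno-miR-99a-5p. After quantile normalization rno-miR-125b-5p and rno-miR-99a-5p differed by -0.21 (95% interval -0.80 to 0.37). The exact two-sided permutation p within rats was 0.25, 0.25 and 0.5 for these 3 pairs, and 0.375, 0.375 and 0.5 after Benjamini-Hochberg adjustment.

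For each of these 3 members the range of the rat means, highest minus lowest, was wider than the mean arterial minus venous difference. The mean log2 level of rno-miR-125a-5p over both samples was 2.36, 3.68 and 3.01, a range of 1.32 against its arterial minus venous difference of 0.55. For rno-miR-125b-5p the rat means were 6.01, 6.63 and 5.95, and for rno-miR-99a-5p they were 4.48, 4.78 and 3.79. Single rats could lie closer together than this. Rats 1 and 3 had nearly the same mean of rno-miR-125b-5p, while its arterial minus venous differences there were 0.31 and 0.26. All 3 were highest in rat 2, as were 45 of the microRNAs detected on all arrays (35.7%). The limma F test for the rat gave unadjusted p-values of 0.0115, 0.0209 and 0.0372 for rno-miR-125a-5p, rno-miR-125b-5p and rno-miR-99a-5p, and adjusted p-values of 0.584, 0.616 and 0.616. That F test was at or under 0.05 without adjustment for 58 of the 758 microRNAs (7.65%), and for 20.6% of those detected on all arrays, and passed adjustment for 0. Rat 3 was alone on its slide, so rat and slide cannot be told apart for it.

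The opposite arms of the same hairpins were mostly absent. Of the 6 opposite (3p) arms, 4 were detected on no array, rno-miR-99b-3p was detected on 1 arterial array, and rno-miR-125a-3p was detected on all 6. The Mir125a hairpin, shown because both of its arms were measured, carries the 5p arm at bases 15 to 38 and the 3p arm at bases 53 to 74, both in capitals, and lies at chr1:67350675-67350759 on the plus strand.
Mir125a: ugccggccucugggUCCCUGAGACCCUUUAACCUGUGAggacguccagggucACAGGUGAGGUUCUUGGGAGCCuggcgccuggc
The log2 level of rno-miR-125a-3p was 5.68, 4.62 and 4.88 in arterial and 5.68, 5.41 and 6.16 in venous plasma. Arterial and venous levels were tied in rat 1, as quantile normalization gives microRNAs of the same rank the same level. The venous level was the higher in rats 2 and 3. The mean log2 difference of -0.69 (standard error 0.356) did not pass the cutoff (limma, unadjusted p = 0.181, adjusted p = 1). Side by side, the 5p arm of this hairpin had log2 differences of 0.37, 0.55 and 0.72 and the 3p arm 0, -0.78 and -1.28. The contrast between the arms was chosen after its values were seen and was not tested.

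Of the 6 let-7 names listed as cluster partners, 4 were on the array and none of these passed the cutoff. Of the others, rno-let-7c-2-3p is made from Mirlet7c2 on chromosome 7, outside the 3 clusters. rno-let-7a-5p and rno-let-7c-5p, widely expressed let-7 forms known to hold back growth genes, were detected on all 6 arrays. The log2 difference of rno-let-7a-5p was -0.09, 0.63 and 0.56, with a mean of 0.37 (standard error 0.219, limma adjusted p = 1). That of rno-let-7c-5p was -0.17, 0.41 and 0.47 (mean 0.24, standard error 0.194, adjusted p = 1 in limma). In both, rat 1 went the other way, unlike in the members. rno-let-7e-5p, encoded between Mir99b and Mir125a, was detected only in the arterial plasma of rat 2, where its log2 level was 2.37, and rno-let-7e-3p was detected on no array.

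Of the related sequences, rno-miR-351-5p, which carries the miR-125 seed, was detected on no array. The Hox cluster microRNAs rno-miR-10a-5p and rno-miR-10b-5p were detected on all 6 arrays and had the higher arterial level in each rat, without passing the cutoff. rno-miR-10a-5p had log2 differences of 0.14, 1.02 and 0.49 (mean 0.55, standard error 0.244, adjusted p = 1 in limma), and rno-miR-10b-5p had 0.13, 0.11 and 0.37 (mean 0.20, standard error 0.0784, adjusted p = 1 in limma).

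**Figure D3:**
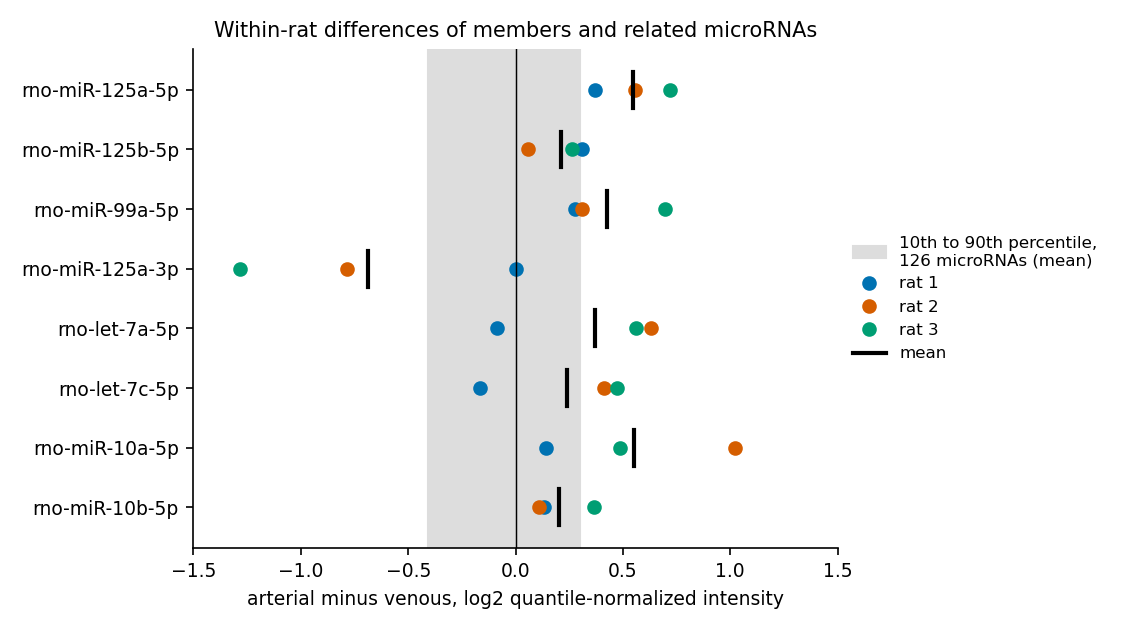
Arterial minus venous difference in log2 quantile-normalized intensity for each rat (points) and their mean (black bars), for the 3 members measured above the floor on all arrays and for related microRNAs detected on all arrays. The grey band spans the 10th to 90th percentile of the mean differences of all microRNAs detected on all arrays (-0.41 to 0.30); the members lie right of 0 in every rat, and rno-miR-125a-3p lies at 0 or left of it.

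The profiles most like those of the members were taken as the smallest root mean square distance between mean-centred log2 levels over the 6 arrays, among the 125 other microRNAs detected on all of them. For rno-miR-125b-5p these were rno-miR-15a-5p (distance 0.19), rno-miR-770-3p (0.20) and rno-miR-23b-3p (0.20), against a median distance of 0.48. rno-miR-99a-5p was 19th in that order, at 0.30. For rno-miR-99a-5p the nearest were rno-miR-130a-3p (0.21), rno-miR-29c-3p (0.27) and rno-miR-10a-5p (0.27), against a median of 0.62, and rno-miR-125b-5p came 6th. rno-miR-125a-3p was among the most distant from both, 105th and 111th of 125. These distances describe 6 arrays of 3 rats and share the difference between rats given above.

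Markers of blood cells and tissues were measured beside the members. All 5 erythrocyte markers on the array (rno-miR-451-5p, rno-miR-144-3p, rno-miR-486, rno-miR-16-5p and rno-miR-92a-3p) were detected on every array, with a summed normalized intensity of 2205 to 2559 in arterial and 1997 to 2584 in venous plasma. Their median log2 difference was -0.24, -0.45 and 0.23. After quantile normalization rno-miR-451-5p had the same log2 level, 10.49, on all arrays but the venous one of rat 3. The normalization sets the levels of the brightest microRNAs, so these sums cannot show whether erythrocyte RNA differed. All 6 platelet and leukocyte markers were detected throughout, summed to 657.5 to 1222 in arterial and 865.5 to 1172 in venous plasma, and had median log2 differences of -0.31, -0.20 and 0.45. Of the 3 liver markers, rno-miR-122-5p and rno-miR-192-5p were detected on all arrays and rno-miR-194-5p on none, and the list summed to 74.3 to 585.1 in arterial and 94.2 to 267.5 in venous plasma, with median log2 differences of -0.21, 0.81 and 0.30. The muscle markers rno-miR-1-3p and rno-miR-133a-3p were detected on no array, rno-miR-206-3p was detected on 1, and their sum was 3 to 9.03 in arterial and 5.99 to 7.38 in venous plasma. Single markers could differ from their list, as rno-miR-486 had log2 differences of -0.23, -1.02 and -0.47 and rno-miR-150-5p, a lymphocyte microRNA, had -0.22, -0.40 and -0.58, both lower on the arterial side of each rat. In limma their unadjusted p-values were 0.113 and 0.0473, and both adjusted p-values were 1. No marker of the 4 lists passed the cutoff, and their part in the differences of the members was not tested.

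Other ways of processing the arrays kept the direction of all 3 members and moved their size. Over the alternatives, the mean log2 difference ranged from 0.07 to 1.90 for rno-miR-125a-5p, from 0.06 to 0.59 for rno-miR-125b-5p and from 0.11 to 0.81 for rno-miR-99a-5p. The lowest values for rno-miR-125a-5p came from the authors' table, in which background was not subtracted, and from normexp with an offset of 50, and the highest from the total gene signal, in which its venous arrays of rats 1 and 3, where it was not detected, hold a placeholder near 0.

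**Figure D4:**
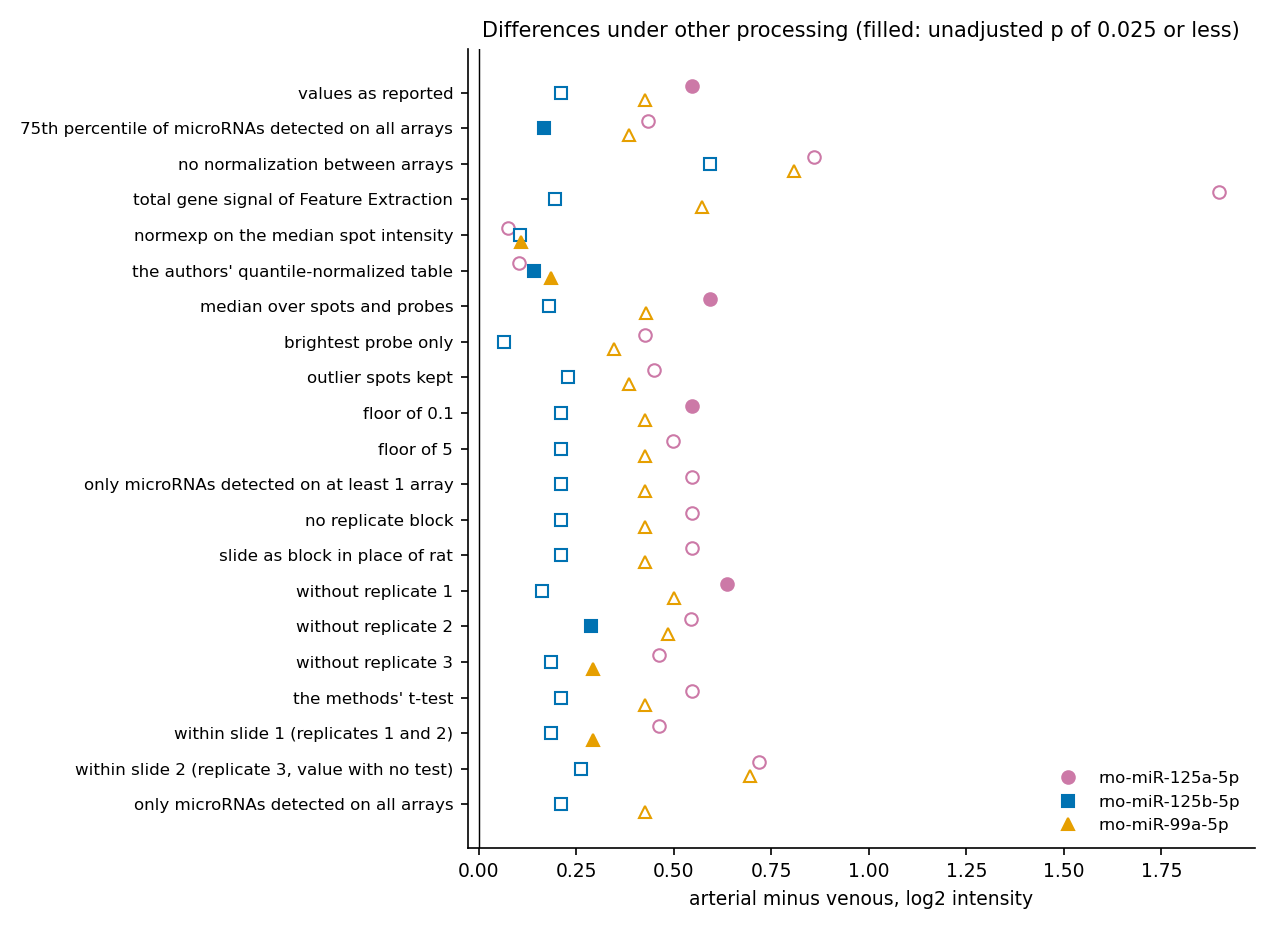
Mean arterial minus venous difference in log2 intensity of rno-miR-125a-5p (circles), rno-miR-125b-5p (squares) and rno-miR-99a-5p (triangles) as reported (top row) and under each alternative, with filled symbols for an unadjusted p of 0.025 or less. Every value lies above 0, and rno-miR-125a-5p is past the cutoff in 3 of its 19 alternatives.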

How the data were processed

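Plasma RNA of 3 rats, arterial and venous, was measured on 6 arrays. The authors deposited spot intensities from Agilent Feature Extraction (10.7.3.1 in the array files, 11.0.1.1 in the submitters' processing notes). These had background subtracted and no normalization between arrays. More than the local background was taken off. Probe 1 of rno-miR-125a-5p in venous rat 3 had a mean raw intensity of 42.1, a local background of 26.1 and a processed mean of 2.23. A table of linear intensities, quantile normalized in GeneSpring, was also deposited, in which background was not subtracted. Detection and outlier flags were used as deposited.

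Control and outlier spots (8.71 to 10.4% of microRNA spots per array) were left out, spots and then probes were averaged, and quantile normalization over the 758 microRNAs was followed by a floor of 1 and log2. limma 3.58.1 in R 4.3.3 was fitted to all 758 with the rat as a block, as the study's methods pair the samples. Its standard errors draw on the spread of all microRNAs in the fit. Deviations of same-numbered arterial and venous samples had correlations of 0.80, 0.69 and 0.64. Other steps used Python 3.11.15 with scipy 1.17.1. The fit was also run on simulated data with changes larger than those of the members, so that run cannot show how it performs at their size. Precision is limited by the small number of arrays.

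The members and lists were chosen with earlier results of these data known. Named are the members, their opposite arms, let-7 cluster partners, seed and miR-10 relatives, the cell type markers, and the 3 nearest profiles of members detected on all arrays. Sequences, positions and host genes come from RefSeq on GRCr8, which is another assembly than the rn4 of the array design. The qRT-PCR was not analysed here.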

Additional observations from a re-analysis of the deposited data

How the results depend on the processing

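The alternatives changed the intensity, scaling, summary of spots, floor, filter, test, block and rats. None turned the direction of rno-miR-125a-5p, rno-miR-125b-5p or rno-miR-99a-5p, and none brought any of these to an adjusted p of 0.05 (smallest 0.462). Changes of only the test, block, filter or rats could not turn it, as all their within-rat differences were above 0. rno-miR-125a-5p left the cutoff of 0.025 at a log2 difference of 0.43 with scaling to the 75th percentile and with the brightest probe, 0.86 without normalization, 1.90 with the total gene signal, 0.074 with normexp, 0.10 in the authors' table, 0.45 with outlier spots kept, 0.50 with a floor of 5, 0.46 within the slide of rats 1 and 2, and 0.55 with microRNAs detected on at least 1 array, with the methods' t-test, with the slide as block and with no replicate block. Leaving out 1 rat gave 0.46 to 0.64, past the cutoff only without rat 1. rno-miR-125b-5p came past the cutoff at 0.17 with the 75th percentile and at 0.14 in the authors' table. With 1 rat left out it was 0.16 to 0.29, past the cutoff only without rat 2 (0.29). rno-miR-99a-5p came past it at 0.11 with normexp, at 0.19 in the authors' table and at 0.29 within the slide of rats 1 and 2, had 0.69 on the slide of rat 3 and ranged from 0.29 to 0.50 with 1 rat left out. The cause of these moves was not tested. The differences of rno-miR-99b-5p and rno-miR-100-5p were not carried through, being near background.

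The 6 microRNAs past the cutoff became 13 with normexp, with medians over spots and with a floor of 0.1, 12 in the authors' table, 11 with the brightest probe, 3 when the fit was limited to microRNAs detected on all arrays, 2 with a floor of 5, and 33, 19 and 17 without rat 1, 2 and 3. Members with the higher arterial level in each rat numbered 4 of 5. With only microRNAs detected on all arrays they were 2 of the 2 members left, and otherwise they numbered 3 or 4. Few spots well above background limit rno-miR-125a-5p (24 of 96), rno-miR-100-5p (3 of 96) and rno-miR-99b-5p (1 of 96).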
